A study of Mus musculus with 4 samples.

Results

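The 10 genes described here encode the oxysterol and fatty acid receptors of the macrophage and the proteins through which they act on cholesterol. They are the liver X receptors LXR alpha (Nr1h3) and LXR beta (Nr1h2), their partner retinoid X receptor alpha (Rxra), the receptors PPAR gamma (Pparg) and PPAR delta (Ppard), the cholesterol exporters Abca1 and Abcg1, and 3 genes that act on uptake, oxidation and storage (Mylip, Ch25h and Soat1). They were chosen by gene symbol, and all 10 were found among 55450 genes. RNA was measured by polyA-plus RNA-seq in 4 libraries of macrophages grown from the bone marrow of C57BL/6J mice. The libraries form 1 group: cells received 100 ng/ml lipid A, the part of bacterial endotoxin that activates TLR4, for 12 h, were then kept without it for 12 h and were collected at 0 min of a second exposure. Some label fields name the agent lipoprotein A. Sex and age were not collected. The 4 biological replicates have a biosample each but 1 donor identifier in common. All libraries received the same treatment and no untreated cells were compared, so none of the values below is an effect of lipid A.

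LXRs are activated by oxysterols, oxidised forms of cholesterol that build up when a cell is loaded with it. As dimers with RXR they switch on genes that move cholesterol out of the cell, and PPARs, which bind fatty acids and their products, work with the same RXR partner on genes of lipid uptake, storage and oxidation. In macrophages these receptors are also known to restrain inflammatory genes, and TLR4 signalling and interferon are known to act in turn on oxysterol synthesis through Ch25h.

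Gene counts totalled 25591162 to 57119610 per library. Per the deposited notes, replicates 1 and 2 were made from 6 read files each and replicates 3 and 4 from 4 each, and what this number reflects is not stated. Replicates 3 and 4 also had the larger totals and a larger share of mitochondrial counts (3.34% and 3.00%, against 0.778% and 1.16%). The labelled cell type was borne out by its markers: all 8 macrophage markers, among them Lyz2, Csf1r and Adgre1, had means of at least 100 TPM, and their summed level was 14849 to 17539 TPM. TPM is the deposited level scaled to transcript length and library size, so that it can be compared between genes. The 8 fibroblast and adipocyte markers, which matter for Pparg, were all below 1 TPM, with sums of 0.08000 to 0.8000 TPM, and 3 of them were at 0. Neutrophil markers summed to 89.41, 13.96, 78.51 and 6.960 TPM in replicates 1 to 4. Of these 8 markers only S100a8 and S100a9 had means of at least 10 TPM, while 5 were below 1 TPM, 2 of them at 0. Endothelial markers, mainly Kdr with a mean of 15.42 TPM, summed to 14.45, 33.74, 13.01 and 25.27 TPM. B cell markers summed to 2.550 to 4.210 TPM and hepatocyte markers to 0.

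Start-site sequence is shown for Ch25h, whose level differed between the libraries far more than that of any other of the 10 genes, and for Pparg, whose start sites decide which PPAR gamma protein is made. All are from RefSeq's promoter table (GRCm38.p6), which held entries for 9 of the 10 genes, 13 start sites in all; Abcg1 had none. The Ch25h sequence is the 234 bases at chr19:34475165-34475398, minus strand, that end just before the annotated exon. The capitals mark TGACGTCA, the core of the cAMP response element (CRE). The first Pparg sequence (chr6:115361104-115361133) lies by RefSeq's start site at 115361144 and within the first exon of transcript Pparg-202, whose annotated start is 115360951. The second (chr6:115362328-115362357) lies by RefSeq's start site at 115362349 and within the first exon of Pparg-204, whose annotated start is 115362292. The third (chr6:115422006-115422065) is the 60 bases before the start of Pparg-201, the transcript of PPAR gamma2, and all 3 are on the plus strand. Capitals in the Pparg sequences mark AGGTCA, the half-site that nuclear receptors of this class bind.
Ch25h: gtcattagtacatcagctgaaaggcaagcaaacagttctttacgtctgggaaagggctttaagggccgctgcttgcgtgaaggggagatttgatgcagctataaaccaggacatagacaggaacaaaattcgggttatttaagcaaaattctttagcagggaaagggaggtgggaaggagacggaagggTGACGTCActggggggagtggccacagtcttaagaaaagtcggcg
Pparg, within exon of Pparg-202: agccgccgcctcAGGTCAgagtcgccccgg
Pparg, within exon of Pparg-204: agggacgcgaggAGGTCAagaaggggcctg
Pparg, before start of Pparg-201: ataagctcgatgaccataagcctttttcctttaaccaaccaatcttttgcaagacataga

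Motifs were searched on both strands in windows of 250 bases before to 50 after each start site, and the shares refer to 32851 such windows over the genome. A match is a description of letters and not of a site in use. AGGTCA was in 16.3% of all windows. Among the 13 windows of these genes it was in 2 of Pparg, 28 bases before the RefSeq start at 115361144 and 9 bases before that at 115362349. Both matches fall inside annotated exons, of Pparg-202 and Pparg-204, and not before those transcripts' own starts. It was also 87 and 48 bases before the Rxra start at 27709292. That is the start of Rxra-202, which had 0 expected counts in every library, and the window at the start of Rxra-201 (27677201), the main transcript, had no match. The direct repeat with 4 bases between (DR4, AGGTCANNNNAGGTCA), the classical LXR element, was in 0.0152% of windows, and that with 1 base between (DR1, AGGTCANAGGTCA), the classical PPAR element, in 0.0396%. Neither was in a window of these genes. With 1 mismatch allowed in each half-site, DR4 was in 1.75% of windows and in none of these, while DR1 was in 2.40% and in the same window of Rxra-202, 75 bases before the start. The other motifs were added after the values had been seen. TGACGTCA was in 1.79% of windows and in that of Ch25h, 61 bases before the RefSeq start. An interferon-response core (GAAANNGAAA, 3.44% of windows), the STAT element TTCNNNGAA (8.30%) and the AP-1 site TGACTCA (5.20%) were in none of the 13.

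By mean TPM the 10 genes ranged from 6.178 to 266.2 TPM, with the storage enzyme Soat1 at the top, LXR alpha and both exporters next, the PPARs low and Ch25h lowest. Of the 11425 genes with a mean of at least 1 TPM, 95.4% stood below Soat1, 90.5% below Nr1h3, 89.7% below Abcg1 and 83.5% below Abca1. Nr1h2, Mylip and Rxra stood at the 75.3, 68.1 and 64.2 percentiles, and Pparg, Ppard and Ch25h at 45.1, 41.6 and 27.9. The mean of Ch25h describes no single library, with 13.89, 10.03, 0.2800 and 0.5100 TPM in replicates 1 to 4. In replicates 1 and 2 it stood above Pparg, and in replicates 3 and 4 below 1 TPM. Within a library, 4 of the 9 neighbouring steps in this order had the same direction in all 4 libraries: Soat1 over Nr1h3, Abcg1 over Abca1, Abca1 over Nr1h2 and Rxra over Pparg. The other 5 (Nr1h3 and Abcg1, Nr1h2 and Mylip, Mylip and Rxra, Pparg and Ppard, Ppard and Ch25h) changed sign between libraries. Over 4 libraries the two-sided exact sign-flip permutation test cannot give a p below 0.125, so no step could pass; the 4 steps had p = 0.125 each, adjusted p = 0.281 over the 9.

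**Figure D1:**
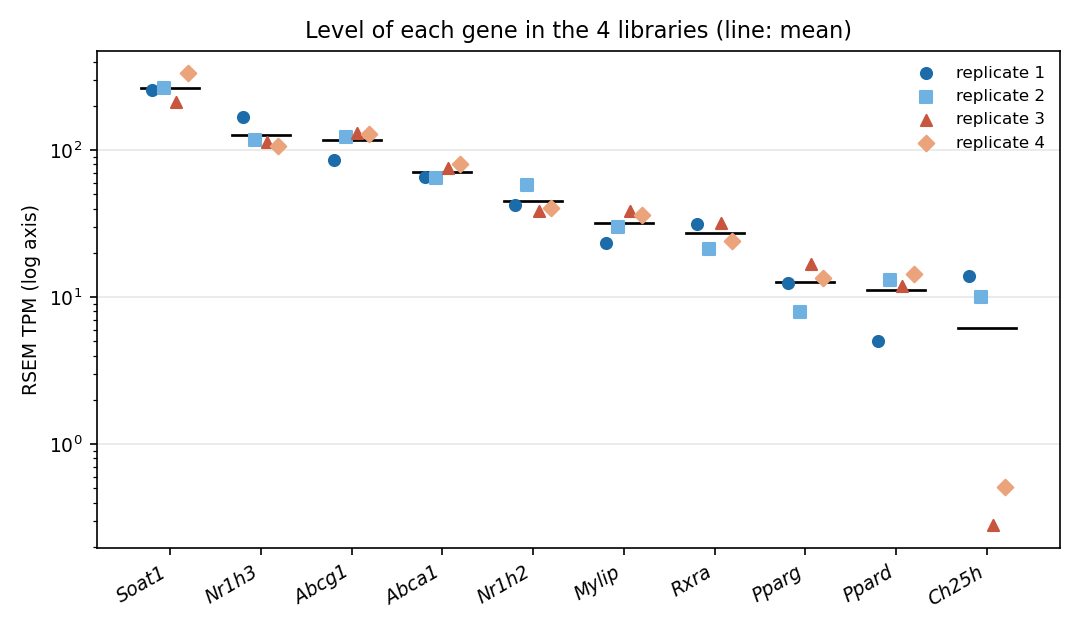
RSEM TPM (log axis) of each gene in replicates 1 to 4 (points) with the mean (line), in order of the mean. The points of Soat1 lie above those of all other genes, and the Ch25h points fall into a pair above 10 TPM (replicates 1 and 2) and a pair below 1 TPM (replicates 3 and 4).

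Of the receptors, LXR alpha RNA was the most abundant. Nr1h3 (chr2:91184061-91202834, minus strand), the LXR form typical of macrophages, had 167.9, 118.2, 114.0 and 106.7 TPM in replicates 1 to 4 (126.7 ± 27.89, SD, n = 4). Replicate 1 stood above the other 3, which lay close together. Nr1h2 (chr7:44549616-44553951, minus strand), the LXR form found in most tissues, had 42.11, 58.40, 38.47 and 40.46 TPM (44.86 ± 9.149, SD, n = 4), with replicate 2 the highest. The ranges of the 2 LXR genes did not overlap. As the log2 ratio of TPM + 1 within a library, Nr1h3 exceeded Nr1h2 by 1.97, 1.00, 1.54 and 1.38 (1.47 ± 0.40, SD, n = 4; two-sided exact sign-flip permutation p = 0.125, adjusted p = 0.167 over 4 gene pairs). The main Nr1h3 transcripts, Nr1h3-201, Nr1h3-202 and Nr1h3-204, share 1 coding sequence of 1335 bases, and Nr1h3-201 held 59.5% to 66.6% of the gene's TPM. Nr1h3-204 held 12.8%, 12.0%, 6.8% and 3.3% in replicates 1 to 4.

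Rxra (chr2:27676440-27762957, plus strand), the shared partner, had 31.23, 21.16, 32.16 and 24.05 TPM (27.15 ± 5.392, SD, n = 4). Replicates 1 and 3 were high and replicates 2 and 4 low, an order that does not follow the read files. The summed neutrophil markers, at 10 TPM or more only for S100a8 and S100a9, were high in the same 2 libraries. Endothelial markers were high in the other 2, and the part of either in the Rxra values was not tested. Rxrb, the second RXR gene, had 13.01, 18.20, 12.94 and 13.78 TPM. Rxra exceeded it in all 4 libraries, by log2 ratios of 1.20, 0.21, 1.25 and 0.76 (0.86 ± 0.48, SD, n = 4; two-sided exact sign-flip permutation p = 0.125, adjusted p = 0.167). Rxrg, the third RXR gene, and Ppara, the PPAR of fatty acid oxidation in liver, were listed at 0 counts in every library, where a count of 0 allows up to 0.117, 0.110, 0.0614 and 0.0525 CPM (counts scaled to library size) in replicates 1 to 4, for counting error only.

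The 2 PPAR genes were near each other in level and exchanged places between libraries. Pparg (chr6:115360951-115490399, plus strand), the receptor of adipocyte formation and of lipid handling in macrophages, had 12.45, 7.920, 16.73 and 13.42 TPM (12.63 ± 3.636, SD, n = 4). Ppard (chr17:28232700-28301474, plus strand), the widely expressed PPAR, had 5.060, 13.09, 11.89 and 14.39 TPM (11.11 ± 4.159, SD, n = 4). Ppard was lowest in replicate 1 and Pparg in replicate 2. The log2 ratio of Ppard over Pparg was -1.15, 0.66, -0.46 and 0.09 (-0.21 ± 0.77, SD, n = 4; two-sided exact sign-flip permutation p = 0.750, adjusted p = 0.750), and without replicate 1 its mean turned to 0.10. Transcripts with a retained intron held 1.4%, 15.6%, 6.3% and 3.8% of Ppard TPM.

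Pparg RNA was assigned almost entirely to transcripts of PPAR gamma1. In the RSEM-layout table Pparg-202 (start at base 115360951) held 42.4%, 58.2%, 49.9% and 67.2% of the gene's TPM and Pparg-204 (start at 115362292) 57.6%, 41.8%, 47.3% and 32.8%. Both use the start codon at 115439848 and have a coding sequence of 1425 bases. Pparg-201, which starts at 115422066 and encodes PPAR gamma2 with a coding sequence of 1515 bases, was listed at 0 TPM in all 4 libraries. In the kallisto-layout table it was at 0 in the first pair of libraries and at 0.5625 TPM in replicate 3 and 0.2704 TPM in replicate 4, at most 2.9% of the gene. Only 127 bases of Pparg-201 lie in no other annotated Pparg transcript, so few reads can tell it from the others. The split between Pparg-202 and Pparg-204 also differed between the tables: Pparg-204 held 9.0% to 34.3% in the kallisto-layout table. There Pparg-206, a 497-base model marked as incomplete at an end, held 17.4% and 22.1% in replicates 3 and 4 and 0 in replicates 1 and 2.

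Both exporters were abundant, Abcg1 above Abca1 in every library. Abca1 (chr4:53030787-53159895, minus strand) passes cholesterol and phospholipid to lipid-poor apolipoprotein A-I and had 66.15, 64.60, 75.10 and 80.32 TPM (71.54 ± 7.461, SD, n = 4). In the RSEM-layout table its coefficient of variation of 10.4% was the smallest of the 10 genes. Abcg1 (chr17:31057675-31117988, plus strand), which passes cholesterol to high-density lipoprotein, had 85.52, 122.6, 131.2 and 129.2 TPM (117.1 ± 21.39, SD, n = 4), with replicate 1 below the other 3. The log2 ratio of Abcg1 over Abca1 was 0.37, 0.91, 0.80 and 0.68 (0.69 ± 0.24, SD, n = 4; two-sided exact sign-flip permutation p = 0.125, adjusted p = 0.167). In the kallisto-layout table the ratio was 0.99 ± 0.39. There Abca1 stood at 47.53, 48.02, 76.07 and 80.58 TPM, a wider gap than in the RSEM-layout table. Its spread (63.05 ± 17.73 TPM, SD, n = 4) was then larger than that of Nr1h3 (111.0 ± 12.05 TPM). Kallisto-layout over RSEM-layout TPM of Abca1 was 0.718, 0.743, 1.01 and 1.00 in replicates 1 to 4. The medians over 6013 genes with at least 10 TPM in every library were near it, at 0.759, 0.775, 1.01 and 1.01.

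Mylip (chr13:45389742-45412022, plus strand) encodes the ubiquitin ligase IDOL, which LXR induces and which marks the LDL receptor for breakdown. It had 23.32, 29.78, 38.57 and 36.20 TPM (31.97 ± 6.857, SD, n = 4). Replicates 3 and 4 were above replicates 1 and 2. Mylip-201 held 99.0% or more of its TPM in the RSEM-layout table, and Abca1-201 and Rxra-201 held at least 99.2% and 97.8% of theirs.

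Soat1 (chr1:156424525-156474331, minus strand) encodes the enzyme that esterifies cholesterol for storage in lipid droplets. It had 255.0, 263.8, 212.8 and 333.4 TPM (266.2 ± 50.01, SD, n = 4), replicate 3 lowest and replicate 4 highest. Part of this level rests on a short transcript model. Soat1-206, a 366-base model marked as incomplete at an end, held 34.2%, 29.8%, 8.5% and 7.4% of Soat1 TPM but 2.2%, 1.6%, 0.4% and 0.3% of its expected counts, since TPM divides counts by length. Counting complete protein-coding transcripts only, Soat1 had 155.4, 171.6, 174.2 and 239.6 TPM (185.2 ± 37.20, SD, n = 4), and replicate 3 was no longer the lowest. It was still the highest of the 10 genes by the mean, while in replicate 1 Nr1h3, counted in this way, had 162.1 TPM. Soat1 in CPM was 338, 402, 410 and 564.

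Abcg1 showed another effect of short models. Abcg1-201, the 5832-base transcript, held 89.0%, 96.0%, 98.9% and 98.8% of Abcg1 TPM in the RSEM-layout table. In the kallisto-layout table it held 54.2%, 56.4%, 98.6% and 98.4%. The remainder in replicates 1 and 2 went mainly to Abcg1-203 and Abcg1-204, of 644 and 912 bases, both marked as incomplete.

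**Figure D2:**
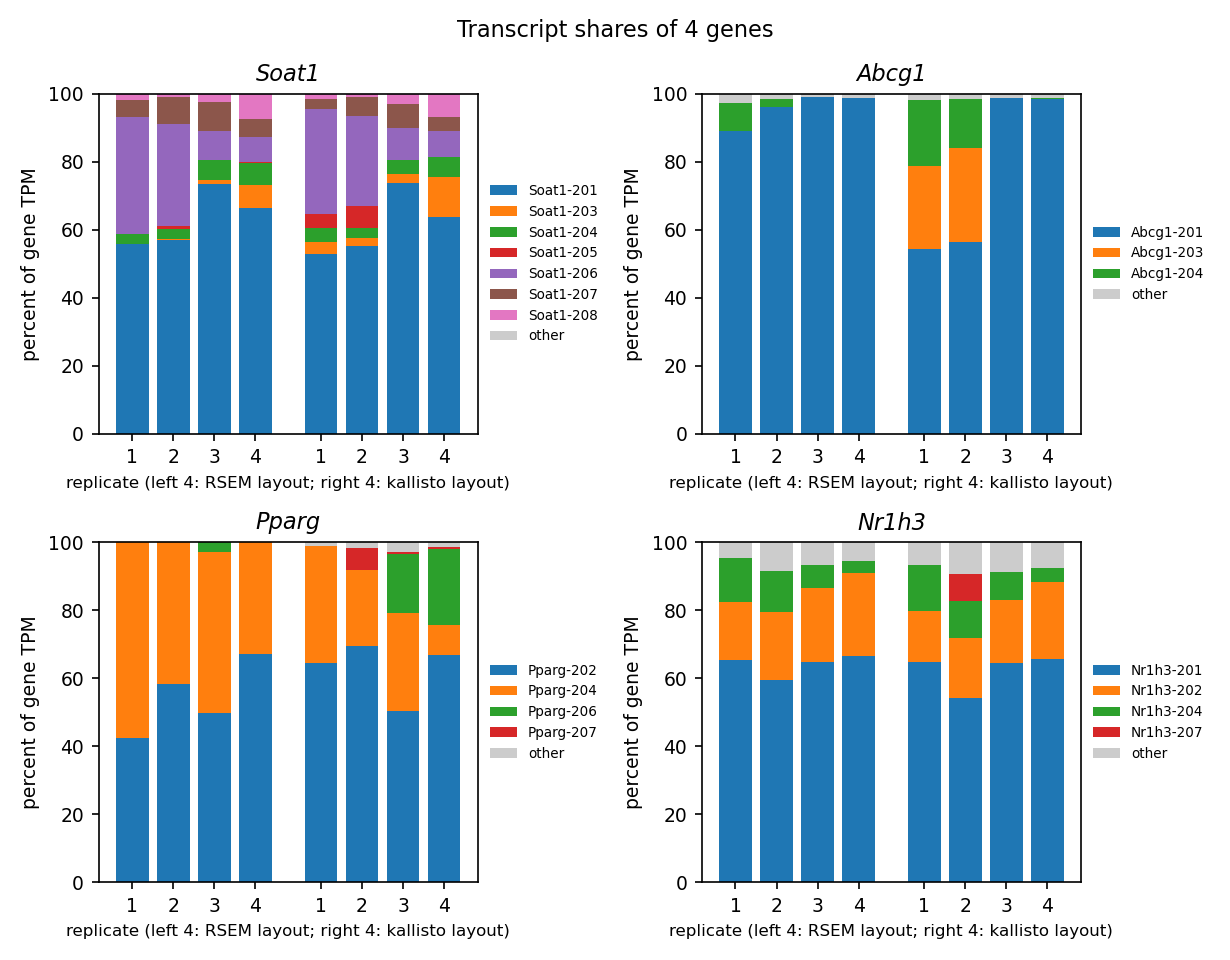
Share of gene TPM (percent, stacked bars) held by each transcript of Soat1, Abcg1, Pparg and Nr1h3 in replicates 1 to 4, in the RSEM-layout table (left bars) and the kallisto-layout table (right bars); "other" sums transcripts under 5% in every bar. Soat1-206 is large in replicates 1 and 2, and Abcg1-203 and Abcg1-204 take over 40% of Abcg1 in replicates 1 and 2 of the kallisto-layout table.

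The ratio of kallisto-layout to RSEM-layout TPM differed between the pairs of libraries. For 9 of the 10 genes it was 0.671 to 0.847 in the libraries with 6 read files and 0.932 to 1.28 in those with 4. Over 6013 genes with at least 10 TPM in every library, its median was 0.759, 0.775, 1.01 and 1.01 in replicates 1 to 4, the same split between the libraries. Abcg1 was the exception at 1.11, 1.15, 0.997 and 1.00. Abcg1-201 alone had 51.45 and 79.74 kallisto-layout TPM in replicates 1 and 2, against 76.12 and 117.7 RSEM-layout TPM. The short models Abcg1-203 and Abcg1-204 had 23.17 and 18.49 kallisto-layout TPM in replicate 1, and 38.94 and 20.43 in replicate 2.

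Ch25h was the gene with the largest difference between libraries. It encodes cholesterol 25-hydroxylase, which makes the oxysterol 25-hydroxycholesterol, and is an intronless gene at chr19:34473778-34475164, minus strand. It had 13.89 and 10.03 TPM in replicates 1 and 2 but 0.2800 and 0.5100 TPM in replicates 3 and 4, from 268, 210, 11 and 23 counts. The pairs did not overlap, and the highest value was 49.6 times the lowest. The SD of its log2 CPM over the 4 libraries, 2.76, was above that of 99.8% of tested genes, against 21.8% for Abca1, 22.3% for Nr1h2 and 78.7% for Ppard. Both tables showed the gap, since the kallisto-layout TPM were 9.315, 7.039, 0.2610 and 0.5144. Ch25h shares 159 exon bases with Gm26902, a noncoding RNA gene on the opposite strand that had 9, 29, 8 and 20 counts. Whether the authors counted by strand is not stated, so reads in those bases cannot be told apart.

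To set this difference against the noise of all genes, replicates 3 and 4 were compared with replicates 1 and 2 by edgeR's quasi-likelihood test with Benjamini-Hochberg adjustment over 13253 genes. This compares libraries that received 1 treatment and says nothing of a condition. It called 726 genes at an adjusted p below 0.05, which is 5.48% of those tested, with 249 higher and 477 lower in replicates 3 and 4 (3.60% of tested genes called lower). The number called was lower with any 1 replicate left out. Of the 10 genes 1 was called, Ch25h, and 2 had an unadjusted p below 0.05, beside 27.4% of all tested genes. Ch25h was 30.2-fold lower in replicates 3 and 4 (log2 fold change -4.92, SE 0.45, edgeR adjusted p = 0.0136), with 10.5, 7.67, 0.225 and 0.403 CPM. All libraries but replicate 3 reached the count minimum of 0.262 CPM. The pair where Ch25h was high sufficed for it to be tested. A minimum in all libraries removes it, so its adjusted p comes from a filter that was chosen to keep it. With each library left out in turn the log2 fold change of Ch25h stayed between -4.48 and -5.38. Each of these fits leaves 1 library on its own, which is assumed to vary like the pair that remains, so that they say little of stability. With offsets for GC content and length it was -4.91 (adjusted p = 0.0229). The mitochondrial share, the total count and the number of read files move with this difference, and their part in it was not tested.

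The other 9 genes did not pass. Mylip was nearest, 1.43-fold higher in replicates 3 and 4 (log2 fold change 0.51, SE 0.15, edgeR adjusted p = 0.0918). Ppard had 0.67 (SE 0.32, adjusted p = 0.236), but this rose to 1.23 (SE 0.24, adjusted p = 0.0444) without replicate 2 and fell to 0.30 (adjusted p = 0.441) without replicate 1. Pparg had 0.55 (SE 0.31), Abcg1 0.43 (SE 0.21), Soat1 0.34 (SE 0.22), Abca1 0.25 (SE 0.21) and Rxra 0.08 (SE 0.31). Nr1h3 had -0.41 (SE 0.28) and Nr1h2 -0.33 (SE 0.15). For Nr1h3 the sign rested on replicate 1, without which it was 0.07 (SE 0.19), and for Nr1h2 it turned to 0.08 (SE 0.13) with offsets for GC content and length. The median over the 10 genes was 0.29, beside -0.02 over all tested genes. TPM ranges of the pairs did not overlap for 7 of the 10 genes, beside 55.6% of all tested genes, and 4 of the 7 were higher in replicates 3 and 4.

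**Figure D3:**
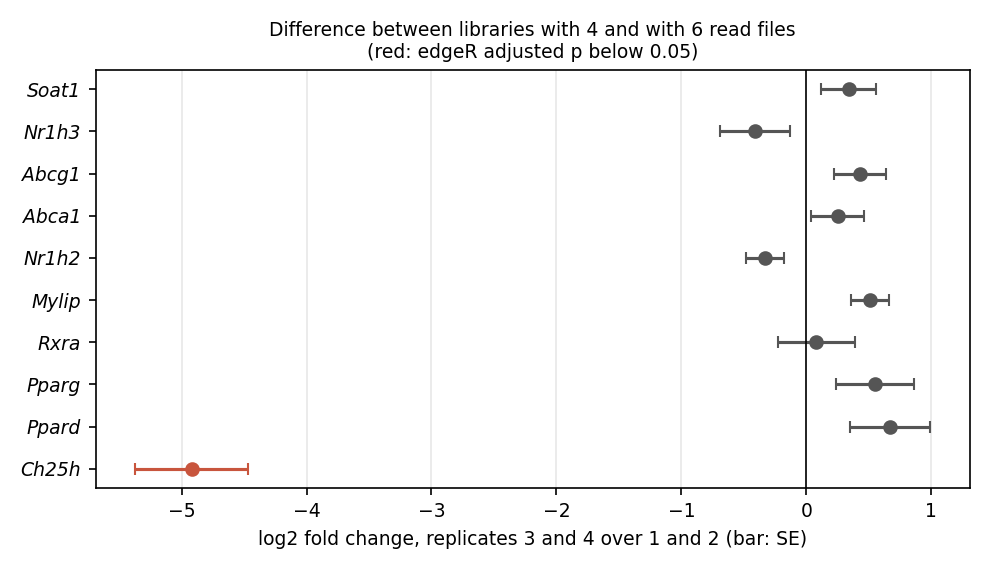
edgeR log2 fold change of replicates 3 and 4 over replicates 1 and 2 for each gene, in the order of level, with bars of 1 SE. Ch25h (red) stands at -4.92, and the other 9 genes lie between -0.41 and 0.67.

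The wider pathway was followed in 6 lists of other genes. Of 16 coregulators of these receptors, 15 had at least 1 TPM (median over the list 20.6 TPM). They were led by the corepressor Ncor1 (133.5 ± 63.13 TPM) and the coactivator Ncoa3 (60.26 ± 12.65 TPM), with SD and n = 4 each. Ncor1 had 78.49, 79.43, 182.6 and 193.5 TPM in replicates 1 to 4. On counts its log2 fold change between the pairs was 0.49 (SE 0.19, edgeR adjusted p = 0.164). Of 18 other LXR target genes, 16 had at least 1 TPM and 7 at least 100 TPM. The highest were Apoe, an apolipoprotein that macrophages secrete and that accepts cholesterol, at 6499 ± 3343 TPM, the phospholipid transfer protein Pltp at 311.9 ± 107.1 TPM and lipoprotein lipase (Lpl) at 247.4 ± 81.90 TPM. Of 16 PPAR target genes, 12 had at least 10 TPM and the other 4 were below 1 TPM. Fabp5, a fatty acid carrier, led with 3829 ± 772.9 TPM, before the lipid droplet protein Plin2 (664.2 ± 237.3 TPM) and the mitochondrial carrier Ucp2 (417.2 ± 99.63 TPM).

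None of the coregulators, LXR targets or PPAR targets tested was called between the libraries by edgeR, beside 5.48% of all tested genes. At an unadjusted p below 0.05 there were 2 of 15, 2 of 16 and 3 of 13, beside 27.4% of all tested genes. Their median log2 fold changes were 0.09, 0.29 and 0.24. Apoe had 6280, 3497, 11215 and 5005 TPM, a spread in which the pairs of libraries overlapped.

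Of 22 other genes of cholesterol uptake, storage, trafficking and oxysterols, 20 had at least 1 TPM, with a list median of 51.4 TPM. Npc2, which carries cholesterol out of lysosomes, stood highest at 889.1 ± 155.9 TPM, and the scavenger receptor Msr1 had 419.4 ± 136.4 TPM. Of the 20 tested, 2 were called by edgeR, both lower in replicates 3 and 4, beside 3.60% of all tested genes called lower. Tspo, a mitochondrial outer membrane protein linked to cholesterol transport, had 669.1, 740.8, 151.6 and 142.4 TPM. Its log2 fold change was -2.26 (SE 0.18, edgeR adjusted p = 0.0124). Without replicate 4 it was -2.20 and the call was lost. Hsd3b7, an enzyme that acts on hydroxylated sterols on the way to bile acids, had 28.77, 43.13, 15.37 and 12.70 TPM. Its log2 fold change was -1.39 (SE 0.19, edgeR adjusted p = 0.0297). It was -1.51 without replicate 3 and -1.26 without replicate 4, and the call was lost in both. These fits leave 1 library on its own, and fewer genes were called in them over all genes. The pairs of libraries did not overlap for either gene, which held for 55.6% of all tested genes.

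All 18 genes of sterol synthesis and its SREBP control had at least 1 TPM and none reached 100 TPM. Their median was 17.5 TPM, with Fdps (49.18 ± 14.97 TPM) and Hmgcs1 (43.39 ± 3.247 TPM), enzymes of the mevalonate pathway, and Insig1 (42.95 ± 11.33 TPM), which retains SREBP in the endoplasmic reticulum, on top. None was called by edgeR, beside 5.48% of all tested genes. At an unadjusted p below 0.05 there were 6 of 18 (27.4% of all tested genes), and 9 of 18 fold changes were positive.

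**Figure D4:**
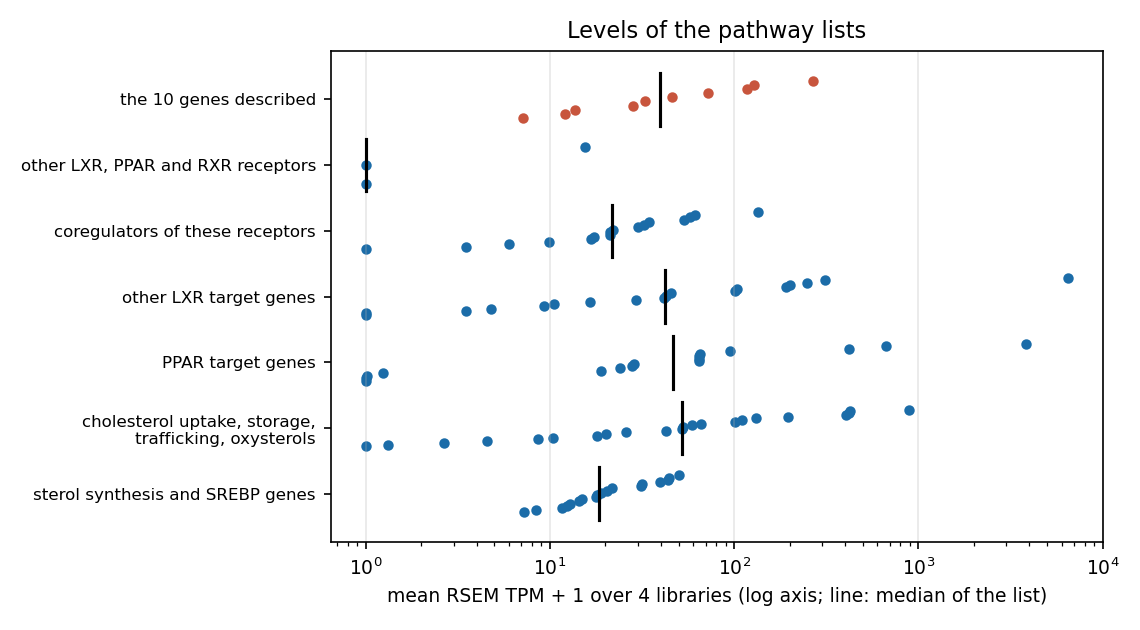
Mean RSEM TPM + 1 over the 4 libraries (log axis) of the 10 genes described (red) and of the genes in each pathway list (blue), with the list median as a line. The highest points are Apoe among LXR targets (6499 TPM) and Fabp5 among PPAR targets (3829 TPM), and all 18 sterol synthesis genes lie below 100 TPM.

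The genes most like 5 of the members in their pattern over the 4 libraries were sought among 91 members and list genes, by the root mean square difference of centred log2(TPM + 1). These are descriptions over 4 points. Abcg1 was nearest to Acadl, an enzyme of fatty acid oxidation (difference 0.06; Acadl had 48.09, 63.15, 74.38 and 68.05 TPM). Abca1 was nearest to the sterol synthesis enzyme Dhcr7 (0.10). Nr1h3 was nearest to Msr1 (0.12), which was also highest in replicate 1, and Pparg to Cpt1a (0.12), which brings fatty acids into mitochondria and was also lowest in replicate 2. Ch25h was nearest to Tspo, but at a difference of 0.53.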

How the data were processed

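Per the deposited notes, values were made on mm10 with GENCODE M21. Per the file headers, the authors deposited expected counts and TPM per gene and transcript (RSEM layout) and estimated counts and TPM per transcript (kallisto layout). Which programs made them is not given in the sources used here; both names are read from column layouts. Rows of spike-ins (97), rows with a bare number as identifier (26248) and 86 gene rows with no entry in the kallisto-layout table were left out.

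Expected counts were rounded, filtered (filterByExpr by pair of libraries, minimum count 10), scaled by TMM and fitted with the quasi-likelihood test of edgeR 4.0.16 (R 4.3.3; threshold 0.05), after a test on simulated data. A gene's spread was the SD of its log2 CPM over the libraries. Ratios used TPM + 1. Alternatives were DESeq2 1.42.0, other normalizations, filters and quantifications, and leaving out each replicate. A count of 0 allows 3 counts. The edgeR p-values set the difference between the pairs of libraries against the spread within the pairs. Anything that differs between the pairs is thus part of the tested difference and not of that spread. Permutation p-values rest on the ratios within each library. All refer to these 4 libraries only. The filter by pair was used because a minimum in all libraries removes Ch25h, which was thus tested through the pair where it was high.

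The 10 genes, the lists and the comparison were chosen with earlier results of these data known. Named in each list were the 3 genes of highest mean TPM and those called by edgeR; 1 gene that this rule names is not reported here. Protein alignments were not made. Figures used Python 3.11.15 and matplotlib 3.10.9.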

Additional observations from a re-analysis of the deposited data

Results flagged for a closer look

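In 29 sets of 4 values, the highest or lowest library was compared with the others by its gap over the whole range. Chance flags about 1 in 20 such sets, and 2 were found. Rxrb, the second RXR gene, had its highest value, 18.20 TPM, in replicate 2 (gap over range 0.840). Msr1, the scavenger receptor, had its highest value, 622.5 TPM, in replicate 1 (0.860).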

How the results depend on the processing

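No paired analysis was possible because the series has 1 group. Between the pairs of libraries edgeR called 726 genes, 244 without replicate 1 and from 22 to 648 over the 4 fits that leave out a replicate; DESeq2 called 1912 and edgeR with no count filter 2564. Offsets for GC content and length gave 527, of which 270 were higher and 257 lower in replicates 3 and 4, beside 249 and 477. Of the 10 genes 1 was called; this was 2 with no count filter (Ppard at 0.72, adjusted p = 0.0126, and Ch25h), 1 to 2 with a replicate left out, and 0 with the count minimum in all 4 libraries, where Ch25h was not tested. That filter and the counting of complete transcripts were chosen after the data were seen, and the filter by pair was chosen to keep Ch25h. Ch25h passed in the other 10 alternatives, but all except that with no count filter used the filter by pair. Those with a replicate left out leave 1 library on its own and say little of stability. Of the list genes 2 were called, and 12 with no count filter. Over all genes, 726 of 13253 tested were called in the main fit and 2564 of 21987 with no count filter. The rise was thus not limited to the 10 genes or the lists. Fold changes with another sign were Nr1h2 with the offsets (0.08), Nr1h3 without replicate 1 (0.07; range -0.76 to 0.07 without a replicate) and Rxra without replicate 2 (-0.29) and replicate 3 (-0.15; range -0.29 to 0.60). The log2 ratio of Ppard over Pparg ranged from -0.51 to 0.10 without a replicate. The causes were not tested. Ratios of gene pairs otherwise kept their direction in the alternatives run, and none could pass with 4 libraries. Ch25h in replicates 3 and 4 rests on 11 and 23 counts, which limits its fold change.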
